A study of Mus musculus with 36 samples.

Results

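The 39 genes described here encode the protein folding, protein import and protein disposal machinery of the endoplasmic reticulum (ER). They were taken by name from the 36856 gene symbols of the count table and set in 3 classes. There are 20 genes of folding (chaperones, their co-chaperones and the enzymes of disulfide bonding), 8 of translocation (the channel through which new proteins enter the ER and its partners) and 11 of ER-associated degradation (ERAD, the export of misfolded proteins for destruction). Their mRNA levels were measured by bulk RNA-seq in 36 libraries of mouse embryonic fibroblasts (MEFs), 3 for each of 12 groups. The cells were wild type (WT) or PERK -/-, called Perk-null below. Each genotype was treated in 6 ways: DMSO, the solvent control; thapsigargin; BtdCPU; halofuginone; thapsigargin together with BtdCPU; and thapsigargin together with halofuginone. Dose, duration and the nature of the PERK -/- allele are not in the labels, nor whether a genotype was 1 clone or replicates were separate cultures, so p-values measure the spread between these libraries only. All 39 genes were among the 16065 tested. In bulk libraries, fewer cells of a type and less RNA per cell cannot be told apart.

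Proteins that enter the secretory pathway pass through the SEC61 channel, fold with the help of the Hsp70 chaperone BiP and the lectin chaperones, and, where folding fails, leave through the SYVN1 (HRD1) complex to be degraded. When unfolded proteins build up, the sensors ATF6, IRE1 and PERK start the unfolded protein response; ATF6 and IRE1 act through the transcription factors ATF6 and XBP1, and PERK slows translation through eIF2 alpha and raises ATF4 and CHOP. Thapsigargin empties the calcium store of the ER by blocking its pump. BtdCPU is known as an activator of HRI, and halofuginone, an inhibitor of prolyl-tRNA synthetase, activates GCN2; both kinases act on eIF2 alpha without ER stress as the input. The comparisons ask how far the ER genes follow thapsigargin when PERK is missing, and what the compounds do to them alone and on top of thapsigargin.

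Levels are given as CPM (counts scaled to a common library size, with TMM scaling), in the order of replicates 1 to 3. Differences are log2 fold changes from edgeR, where 1 means a doubling, and a gene is called changed when its Benjamini-Hochberg adjusted p over all tested genes is under 0.05. Libraries held 32454257 to 37178107 counts. Eif2ak3, the gene of PERK, stood at 30.3, 32.4 and 30.7 CPM in WT DMSO and at 9.37, 9.67 and 10.8 CPM in Perk-null DMSO libraries, a difference of -1.65 (SE 0.187). With thapsigargin it stood at 79.1, 78.1 and 104 CPM in WT and 26.04, 25.01 and 31.2 CPM in Perk-null libraries, with BtdCPU at 16.4, 27.1 and 17.1 and 8.62, 9.22 and 8.09 CPM, and with halofuginone at 29.3, 32.7 and 55.5 and 10.1, 7.66 and 10.1 CPM. With BtdCPU and thapsigargin it stood at 74.9, 72.7 and 74.4 and 20.8, 17.8 and 23.7 CPM, and with halofuginone and thapsigargin at 91.7, 110.0 and 105 and 32.7, 28.1 and 35.4 CPM. Within each treatment all Perk-null libraries lay under all WT libraries, but reads of the gene remained, and 1 Perk-null library with thapsigargin and 2 with halofuginone and thapsigargin reached the level of WT DMSO. Levels of cell type markers, here and below, are CPM without TMM scaling. Over all libraries 9 of 10 fibroblast markers averaged over 1 CPM (Fap did not). Of the immune markers reported here Cd3e was at 0 throughout, Ptprc reached at most 0.842 CPM and Cd68 3.72 CPM. The summed fibroblast markers ran from 24900 to 31000 CPM in WT DMSO and from 16300 to 19800 CPM in WT thapsigargin libraries. In Perk-null cells they ran from 16200 to 19100 CPM with DMSO and from 20000 to 24800 CPM with thapsigargin. The summed epithelial markers, nearly all Krt8 and Krt18, were at 0.114 to 0.346 CPM in WT DMSO and at 14.9 to 22.1 CPM in WT halofuginone libraries, while Epcam, Cdh1 and Cldn7 did not exceed 0.173, 0.951 and 0.123 CPM in any library. The 4 endothelial markers summed to 0.237 to 0.923 CPM in WT DMSO and 3.03 to 4.7 CPM in WT halofuginone libraries. The part of these shifts in the results was not tested.

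The start-site regions of these genes were searched for sequences known from the unfolded protein response. RefSeq promoters (GRCm38.p6, 250 bases before to 50 after the start site) were found for 33 of the 39 genes. The ER stress response element (ERSE), searched on both strands as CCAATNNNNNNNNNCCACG, is the known site of ATF6 with NF-Y. It occurred in 10 of these 33 genes against 37 of 27025 genes in the table (0.137%). The genes with it were 8 of 17 folding, 2 of 10 ERAD and 0 of 6 translocation genes. The related ERSE-II (ATTGG, any 1 base, then CCACG) occurred in 2 of 33 (0.0444% of all genes), and the UPRE core TGACGTGG, bound by XBP1, in 0 of 33 (0.714% of all genes). A loose ATF4-type element, TGATGNAAN, was found in 1 of 33 genes, Herpud1 (4.5% of all genes), and its strict form TGATGCAAT in 0 (0.222% of all genes). A match describes letters in this window and is not evidence of binding. The elements are shown here because they recur among the folding genes; each is written 5' to 3' on the strand where it reads CCAAT or ATTGG, with the fixed letters in capitals.
Hspa5, ERSE: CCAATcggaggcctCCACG
Hsp90b1, ERSE: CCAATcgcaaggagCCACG
Hsp90b1, ERSE: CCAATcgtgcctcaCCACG
Calr, ERSE: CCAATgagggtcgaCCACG
Canx, ERSE: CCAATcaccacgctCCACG
Pdia6, ERSE: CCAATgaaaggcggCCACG
Dnajb11, ERSE-II: ATTGGcCCACG
Dnajc3, ERSE: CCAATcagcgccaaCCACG
Creld2, ERSE: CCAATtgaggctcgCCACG
Ero1lb, ERSE: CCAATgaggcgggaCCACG
Herpud1, ERSE-II: ATTGGgCCACG
Syvn1, ERSE: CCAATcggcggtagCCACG
Derl3, ERSE: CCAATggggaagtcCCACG

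The 250 bases before the start site are shown for 4 genes whose values below are unlike one another: Hspa5 (ERSE in capitals), Herpud1 (ERSE-II and, on the opposite strand, the loose ATF4-type element in capitals), Ero1l and Sec61b (no match to any of the motifs). All are from RefSeq, build GRCm38.p6, written 5' to 3' on the gene's strand. G and C made up 80.8% of the Ero1l stretch, 69.2% of that of Herpud1 and 62.4% of that of Hspa5.
Hspa5, chr2:34771840-34772089, plus strand: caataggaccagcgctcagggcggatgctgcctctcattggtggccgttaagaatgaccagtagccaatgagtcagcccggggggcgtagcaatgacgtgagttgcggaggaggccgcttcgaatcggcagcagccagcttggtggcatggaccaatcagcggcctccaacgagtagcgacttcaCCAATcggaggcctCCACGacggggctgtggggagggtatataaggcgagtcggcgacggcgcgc
Herpud1, chr8:94386179-94386428, plus strand: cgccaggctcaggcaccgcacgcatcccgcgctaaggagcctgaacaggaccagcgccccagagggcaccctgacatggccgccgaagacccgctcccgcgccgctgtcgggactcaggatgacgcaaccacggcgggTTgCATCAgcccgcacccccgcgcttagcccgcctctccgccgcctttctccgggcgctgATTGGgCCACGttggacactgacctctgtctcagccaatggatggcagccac
Ero1l, chr14:45318573-45318822, minus strand: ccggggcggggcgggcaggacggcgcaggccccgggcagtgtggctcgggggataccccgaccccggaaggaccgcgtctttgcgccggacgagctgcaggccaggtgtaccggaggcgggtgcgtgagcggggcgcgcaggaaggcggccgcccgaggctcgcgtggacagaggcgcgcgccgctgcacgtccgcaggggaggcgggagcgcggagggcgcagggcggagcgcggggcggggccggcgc
Sec61b, chr4:47474411-47474660, plus strand: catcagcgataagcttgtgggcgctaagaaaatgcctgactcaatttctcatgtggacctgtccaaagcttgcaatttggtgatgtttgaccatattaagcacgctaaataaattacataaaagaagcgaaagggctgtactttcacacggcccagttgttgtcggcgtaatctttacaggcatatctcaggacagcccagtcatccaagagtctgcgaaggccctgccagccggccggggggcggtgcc

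In DMSO the genotypes held close to the same total, while levels differed widely between genes. All 39 genes together held 1.28% ± 0.0365 of the TMM-scaled counts in WT DMSO and 1.29% ± 0.0263 in Perk-null DMSO libraries (SD, n = 3). Of unscaled library totals they held 1.28% and 1.33%. Shares of counts are TMM-scaled unless unscaled totals are named. Folding genes made up 1.07% and 1.06%, translocation genes 0.148% and 0.171%, and ERAD genes 0.0614% and 0.0531%. Per kilobase of exon (GENCODE M21 lengths), the most abundant in WT DMSO cells were Hsp90b1, the ER Hsp90 GRP94, at 623 CPM per kb, P4hb, the disulfide isomerase PDI, at 405, and Pdia3, the isomerase that works with the lectin chaperones, at 401. Calr, the gene of calreticulin, followed at 392 and Hspa5, the gene of BiP, at 329 CPM per kb. At the other end stood the oxidase gene Ero1lb at 0.272 and Derl3, a derlin of secretory tissues, at 0.0933 CPM per kb.

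**Figure D1:**
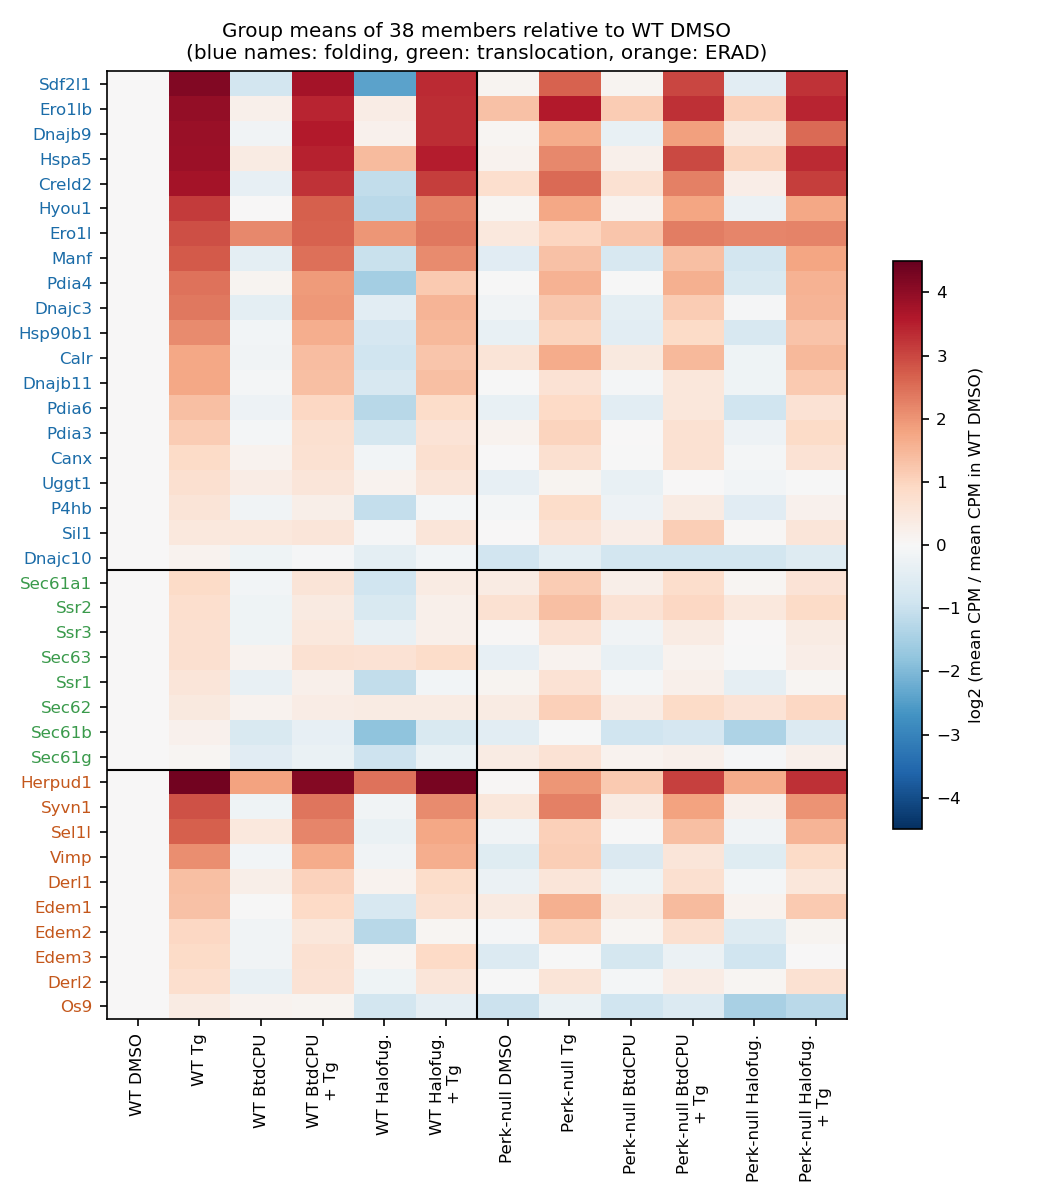
Group means (n = 3 libraries) of 38 genes as log2 ratio to the WT DMSO mean, in columns by group and rows by class, red for higher and blue for lower; Derl3, near 0 CPM, is left out. The folding and ERAD rows are deepest red in the WT columns with thapsigargin, where the translocation rows are paler; in WT halofuginone the translocation genes Sec61b, Ssr1 and Sec61a1 are blue.

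Thapsigargin raised nearly all of the set in WT cells, the folding genes most. Of the 39 genes, 35 were called higher and 0 lower, where 24.9% of all tested genes were called higher and 22.7% lower. A rise of at least 2-fold was called for 21 of the 39 (10.4% of all genes), made up of 15 of 20 folding genes, 6 of 11 ERAD genes and 0 of 8 translocation genes. The median log2 fold change was 2.26 for folding, 1.33 for ERAD and 0.635 for translocation genes, beside 0.0154 for all genes. All 35 calls were kept when any 1 of the 6 libraries was left out.

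Among the folding genes, BiP and its co-factors were among those that rose most. Hspa5 went from 1423, 1604 and 1143 CPM with DMSO to 22340, 19330 and 18470 CPM with thapsigargin, a change of 3.85 (SE 0.158, edgeR adjusted p 2.74e-18). Sdf2l1, which works in a complex with the co-chaperone ERDJ3, went from 16.5, 19.8 and 14.2 to 347, 282 and 272 CPM, a change of 4.15 (SE 0.294, edgeR adjusted p 6.18e-13), the largest of the class. Dnajb9, the co-chaperone ERDJ4, went from 9.26, 12.9 and 8.82 to 152, 144 and 165 CPM, a change of 3.89 (SE 0.17, edgeR adjusted p 7.57e-18). In all 3 genes every thapsigargin library lay more than 10-fold above every DMSO library. Hyou1, which exchanges the nucleotide of BiP, rose by 3.14, and the secreted ER stress factors Creld2 and Manf rose by 3.73 and 2.75. Sil1, the other exchange factor of BiP, rose by only 0.47. The J-domain genes Dnajc3 and Dnajb11 rose by 2.39 and 1.75, while Dnajc10, the reductase ERDJ5, did not pass the threshold, at 0.15 (SE 0.101, edgeR adjusted p 0.216).

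Hsp90b1 went from 2493, 2717 and 2332 to 11820, 10430 and 10670 CPM, a rise of 2.13. Calr went from 1129, 1105 and 1166 to 3985, 3419 and 4069 CPM, a rise of 1.75. Canx, its membrane-bound relative, rose by 0.86, and Uggt1, which marks misfolded glycoproteins for another round with these lectins, by 0.74. The disulfide isomerases spread widely, from 2.46 for Pdia4 over 1.36 for Pdia6 and 1.14 for Pdia3 to 0.59 for P4hb. Their re-oxidising enzymes rose further: Ero1l went from 30.03, 27.04 and 26.3 to 202, 191 and 228 CPM, 2.90 (SE 0.203, edgeR adjusted p 5.18e-13), and the low Ero1lb from 1.71, 1.49 and 2.23 to 28.1, 26.7 and 29.5 CPM, a rise of 3.96. In each of these genes whose libraries are listed, the groups did not overlap.

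The translocation genes moved little. Sec61a1, the pore subunit, went from 318, 349 and 339 to 620.3, 581 and 641 CPM, a change of 0.87 (SE 0.0886, edgeR adjusted p 1.45e-09), the largest of the class, with no overlap between groups. Ssr1, a subunit of the translocon-associated complex TRAP, went from 253, 252 and 278 to 364, 374 and 418 CPM, a rise of 0.56. Its partners Ssr2 and Ssr3 rose by 0.74 and 0.71, and Sec62 and Sec63, which serve import after translation, by 0.42 and 0.71. The small channel subunits were the exception: Sec61b stood at 39.7, 51.7 and 38.6 CPM with DMSO and 51.7, 53.8 and 42.8 CPM with thapsigargin, overlapping, and neither it, at 0.19 (SE 0.189, edgeR adjusted p 0.43), nor Sec61g, at 0.091 (SE 0.238, edgeR adjusted p 0.777), passed the threshold.

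Most ERAD genes rose as well, by unlike amounts. Herpud1, a membrane scaffold of the HRD1 complex, went from 54.9, 57 and 51.6 to 1212, 1025 and 1095 CPM, a change of 4.35 (SE 0.174, edgeR adjusted p 2.32e-18), the largest of all 39 genes. The ligase gene Syvn1 and its adaptor Sel1l rose by 2.88 and 2.68, and Vimp, which brings the extraction motor VCP to the membrane, went from 51.8, 57.7 and 46.6 to 231, 235 and 192 CPM, a rise of 2.08. The mannosidase-like Edem1 went from 75.4, 81.1 and 71.2 to 187, 190.1 and 195 CPM, a rise of 1.33, and Edem2 and Edem3 rose by 0.92 and 0.88. Groups did not overlap in the genes listed by library. Derl1 and Derl2 rose by 1.34 and 0.76, and the lectin Os9 by 0.36, the smallest change called in the class. Derl3 was at 0.0857, 0.225 and 0.248 CPM with DMSO and 0.309, 0.351 and 0.333 CPM with thapsigargin, without overlap, and did not pass. Syvn1 and Derl2 overlap Mrpl49 and Mis12 on the genome, which reached up to 194% and 62.3% of their counts in a library. Use of strand in counting is not given in the sources used here, so part of their reads could belong to the neighbour; Hspa5 overlaps Rabepk, whose counts never exceeded 4.84% of its own.

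**Figure D2:**
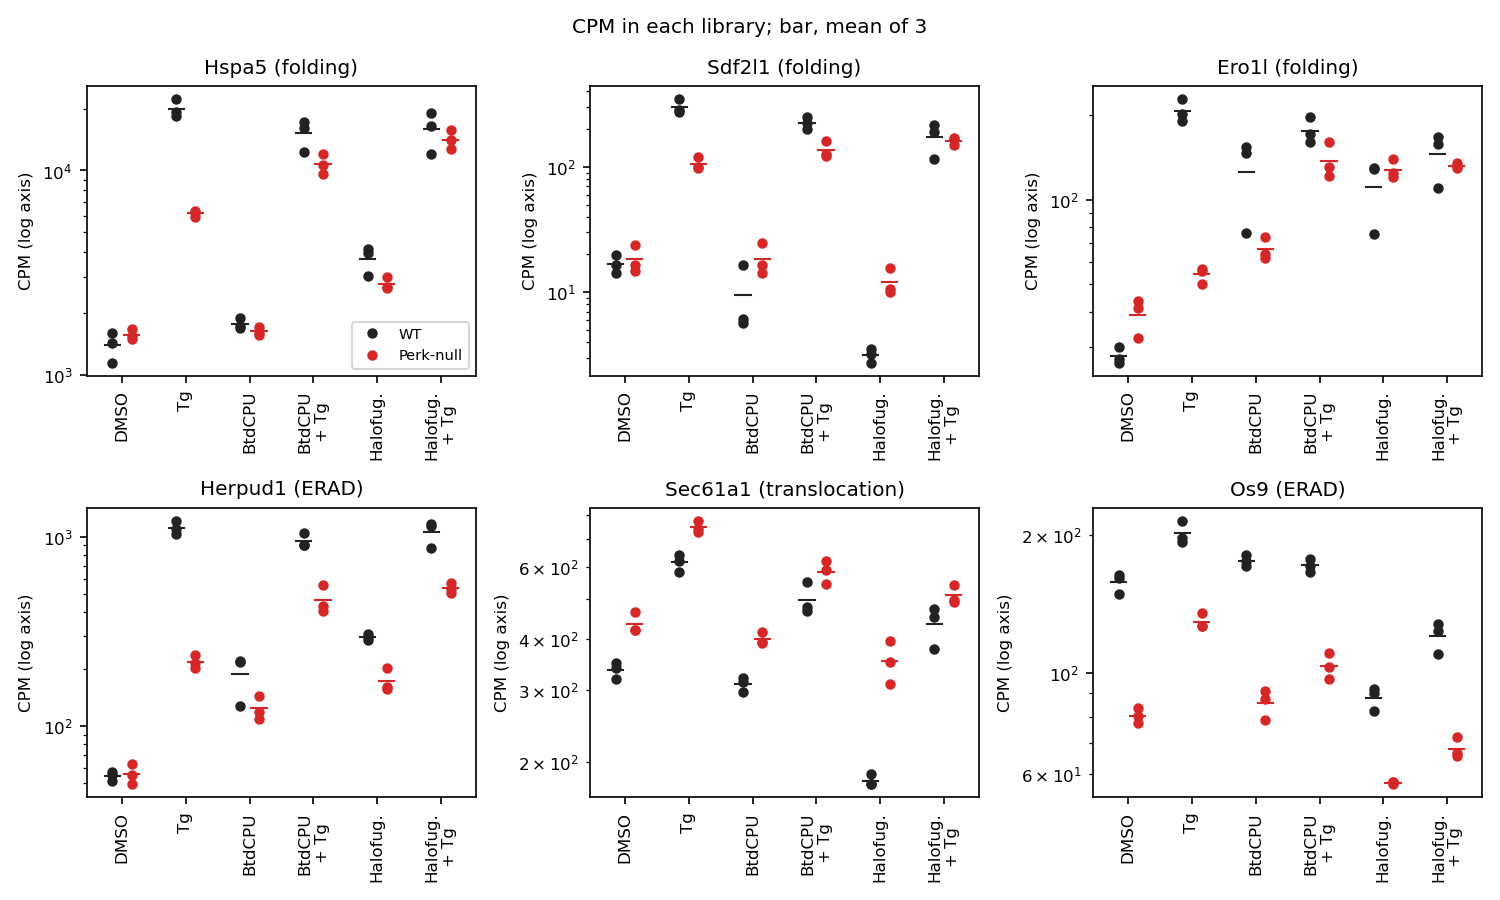
CPM in every library (log axis) for 6 genes by treatment, with WT in black and Perk-null in red and a bar at the mean of 3. With thapsigargin the Perk-null libraries of Hspa5, Sdf2l1, Ero1l and Herpud1 sit under all WT libraries, those of Sec61a1 sit above them, and Os9 is lower in Perk-null cells in every treatment.

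In Perk-null cells thapsigargin still raised the set, with 35 of 39 called higher and 0 lower, beside 15.2% and 12.7% of all tested genes. Of the genes called higher, 34 were called in both genotypes. Ero1l was called only in WT and Dnajc10 only in Perk-null cells. Calls shared by the genotypes were counted only among the 39 genes, with no background over all genes. Medians were 1.28 for folding, 1.05 for ERAD and 0.575 for translocation genes (0.0459 for all genes), and rises of at least 2-fold were called for 12, 6 and 0 genes (18 of 39, beside 4.02% of all genes). Uggt1, at 0.49 (SE 0.148), was lost without Perk-null DMSO replicate 2 (0.42) or Perk-null thapsigargin replicate 3 (0.32), and the other 34 calls were kept in every such omission. Hspa5 went from 1494, 1670 and 1540 to 6364, 5910 and 6202 CPM, a rise of 1.97 (SE 0.146), and every library with thapsigargin lay under every WT library with it. Sdf2l1 went from 14.7, 16.4 and 23.8 to 99.6, 98 and 119 CPM, a rise of 2.53 (SE 0.276) and the largest of the set in these cells. Ero1lb followed at 2.22.

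The difference between these responses (Perk-null minus WT, an interaction in the same fit) was called in folding and ERAD genes and in none of the translocation genes. Of the 39 genes, 18 had a smaller and 2 a larger response in Perk-null cells, beside 18.6% and 19.5% of all tested genes. The 18 were 13 of 20 folding and 5 of 11 ERAD genes, with 0 of 8 translocation genes called either way. Median differences were -0.918 for folding, -0.42 for ERAD, -0.0461 for translocation and 0.027 for all genes. For the translocation class a call of 0 does not show equal responses: the differences ran from -0.18 to 0.275, with 0 of 8 under an unadjusted 0.05 in edgeR, and their standard errors from 0.124 to 0.332. Leaving out libraries in turn kept 18 of the 20 calls.

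Ero1l, which re-oxidises PDI, had the largest difference. Its libraries ran 43.5, 41.1 and 32.4 CPM with DMSO and 55.99, 56.7 and 50.4 CPM with thapsigargin in Perk-null cells, groups that did not overlap, yet the difference of 0.48 did not pass (edgeR adjusted p 0.0605). It passed with no filter on low counts, at 0.45 (edgeR adjusted p 0.00232). The difference from the WT response was -2.42 (SE 0.273, edgeR adjusted p 2.39e-08). Herpud1 went from 49.3, 55.03 and 63.2 to 215, 202 and 238 CPM, a rise of 1.97, and differed by -2.38 (SE 0.218, edgeR adjusted p 5.02e-10). Dnajb9 went from 11.3, 10.5 and 10.9 to 33.3, 30.3 and 35.8 CPM, a rise of 1.60, and differed by -2.29 (SE 0.222, edgeR adjusted p 1.37e-09). With thapsigargin, all Perk-null libraries of these 3 genes lay under all WT libraries. Creld2, Hspa5, Ero1lb, Sdf2l1 and Hyou1 differed by -1.92, -1.88, -1.74, -1.63 and -1.50.

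Smaller differences were called for Hsp90b1 and Calr, while Pdia3, Canx and Pdia6 were not called (-0.30, -0.17 and -0.14). Hsp90b1 stood at 1960, 2154 and 1835 CPM with DMSO and 5138, 5006 and 4995 CPM with thapsigargin in Perk-null cells, a difference in response of -0.78 (SE 0.172, edgeR adjusted p 0.000508). Calr went from 1633, 1654 and 1813 to 3472, 3091 and 4150 CPM there, and differed by -0.68 (SE 0.168, edgeR adjusted p 0.00155); with thapsigargin its libraries overlapped those of WT cells, and with DMSO they lay above them. Among ERAD genes Sel1l differed by -1.45, Syvn1 by -1.13 and Derl1 by -0.52. Edem1 showed no call: it went from 101, 98.2 and 101 to 226, 212 and 252 CPM, and the difference was -0.12 (SE 0.156, edgeR adjusted p 0.577). Vimp, which went from 35.95, 35.5 and 34.9 to 109, 114 and 112 CPM, differed by -0.42 (SE 0.161, edgeR adjusted p 0.0381), a call lost when any 1 of 9 of the 12 libraries was left out (adjusted p up to 0.109, without WT DMSO replicate 3).

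Both larger responses were small. Os9 went from 80.5, 77.5 and 83.6 to 126, 126 and 135 CPM in Perk-null cells and from 161, 149 and 163 to 215, 197 and 193 CPM in WT cells, a difference in response of 0.33 (SE 0.107, edgeR adjusted p 0.0158), a call lost with no filter on low counts (edgeR adjusted p 0.174). P4hb, also the beta subunit of collagen prolyl hydroxylase, differed by 0.32 (SE 0.121, edgeR adjusted p 0.0351), but not in 5 of the 12 omissions of 1 library (adjusted p up to 0.114, without WT thapsigargin replicate 2). Sec61a1 went from 419, 421 and 464 to 741, 729.8 and 776 CPM in Perk-null cells, Sec61b from 29.6, 36.9 and 27.9 to 39.6, 49.5 and 39.4 CPM and Ssr1 from 285, 292 and 279 to 401, 409.5 and 432 CPM. Their responses differed from WT by -0.088 (SE 0.124), 0.26 (SE 0.268) and -0.024 (SE 0.128), with edgeR adjusted p of 0.623, 0.489 and 0.924.

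**Figure D3:**
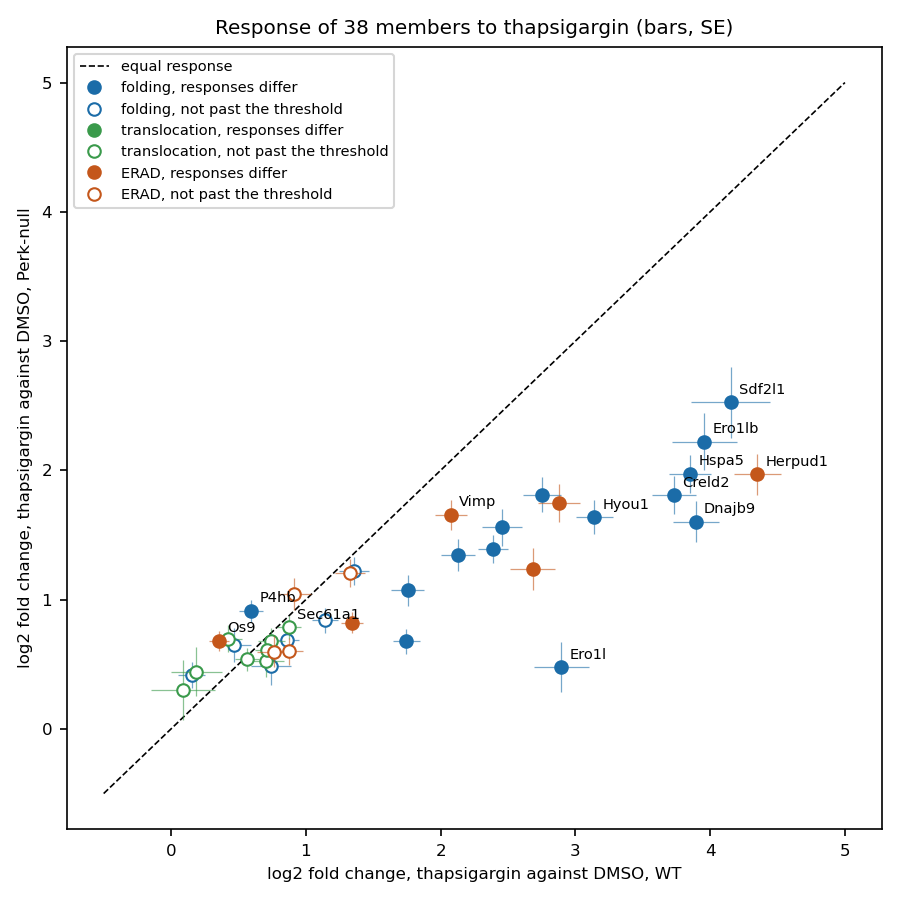
Log2 fold change with thapsigargin in WT (x axis) and Perk-null cells (y axis) for 38 genes (Derl3 left out), coloured by class, with SE bars; filled points passed the threshold for the difference, and the dashed line marks equal responses. Ero1l lies farthest under the line, and the translocation genes lie around it as open points.

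As TMM-scaled shares of counts, the set rose from 1.28% to 5.70% ± 0.406 with thapsigargin in WT cells and from 1.29% to 2.99% ± 0.145 in Perk-null cells (SD, n = 3). Of unscaled library totals it held 5.6% and 3.09% with thapsigargin in WT and Perk-null cells, and the translocation genes 0.237% and 0.277%. Hspa5 alone reached 2.00% ± 0.203 in WT and 0.616% ± 0.0230 in Perk-null libraries. Translocation genes reached 0.241% ± 0.00954 and 0.268% ± 0.00383, the class in which the Perk-null share was higher, with no overlap. For ERAD genes the shares were 0.269% ± 0.0126 and 0.125% ± 0.00958.

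Genes with and without an ERSE in their promoter can be set side by side as a description. The 10 with an ERSE had a median response to thapsigargin of 2.26 in WT and 1.37 in Perk-null cells, with 9 called higher in each, and the 23 without had medians of 0.877 and 0.682, with 20 called higher in each. The exception among the 10 was Derl3, near 0 CPM. Over all tested genes 24.9% were called higher in WT and 15.2% in Perk-null cells. The 23 without an ERSE include Herpud1 and Dnajb11, which hold an ERSE-II. The difference between genotypes had a median of -0.954 with an ERSE (7 of 10 called lower) and -0.18 without (8 of 23 called lower and 2 higher). Of all tested genes 18.6% were called lower and 19.5% higher in this difference. The lists are short and share their classes. Ero1l, without an ERSE, had a larger difference than all 10 genes with it, the most extreme of which was Creld2 at -1.92.

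Other genes of the same machinery, listed from general knowledge with earlier results of these data known, gave these counts. With thapsigargin in WT cells, where 24.9% of all genes were called higher and 22.7% lower, 15 of 38 other folding genes were called higher and 11 lower, 22 of 42 other translocation genes higher and 6 lower, and 16 of 35 other ERAD genes higher and 3 lower. Their medians were -0.0149, 0.358 and 0.187. The largest rises were those of Mcfd2, a cargo receptor subunit, at 1.32 (SE 0.110), the signal peptidase gene Sec11c at 1.42 (SE 0.165), and Rhbdd1, a rhomboid protease, at 1.40 (SE 0.173). In Perk-null cells (15.2% and 12.7% of all genes) 23 other folding genes were called higher and 1 lower, 20 translocation genes higher and 1 lower, and 10 ERAD genes higher and 2 lower. Here the prolyl isomerase Fkbp14 led at 2.04 (SE 0.290). The interaction (19.5% and 18.6% of all genes) called 15 other folding genes with a larger and 4 with a smaller response in Perk-null cells, the largest being Fkbp14 at 1.96 (SE 0.396). Of the other translocation genes 9 had a larger and 8 a smaller response, unlike the 8 channel and TRAP genes above, from -1.17 (SE 0.229) for Sec11c to 1.42 (SE 0.268) for Tram2, a relative of the translocating chain protein. Of the other ERAD genes 4 had a larger and 13 a smaller response, from -1.26 (SE 0.123) for the ubiquitin-conjugating Ube2g2 to 1.5 (SE 0.272) for Jkamp.

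BtdCPU alone moved few of the genes past the threshold, and in WT cells the share called higher was near that of all tested genes. In WT cells 5 of 39 genes were called higher and 6 lower, beside 12.9% and 9.31% of all tested genes, and in Perk-null cells 2 were called higher and 0 lower, beside 2.55% and 1.04%. All comparisons with DMSO in a genotype share the same 3 DMSO libraries. Herpud1 stood at 221, 128 and 218 CPM in WT cells, a rise of 1.79 (SE 0.157, edgeR adjusted p 4.34e-10), and at 109, 119 and 144 CPM in Perk-null cells, a rise of 1.15 (SE 0.155, edgeR adjusted p 7.1e-06). Ero1l stood at 147, 75.97 and 154 CPM in WT cells, a rise of 2.17 (SE 0.198, edgeR adjusted p 9.56e-10), and at 73.7, 62.05 and 64.4 CPM in Perk-null cells, a rise of 0.77 (SE 0.191, edgeR adjusted p 0.0145). In both genes replicate 2 of the WT group lay nearest to DMSO, and no treated library overlapped DMSO. Both genes also rose with thapsigargin in WT cells, but Hspa5 did not follow here: it stood at 1898, 1739 and 1689 CPM, a change of 0.35 that did not pass (edgeR adjusted p 0.0692) but did with no filter on low counts (0.35, edgeR adjusted p 0.0193).

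The lower calls with BtdCPU in WT cells were Sdf2l1, Manf, Dnajc3, Sec61b, Ssr1 and Derl2, with changes of -0.34 to -0.83. Sdf2l1 stood at 6.10, 16.5 and 5.70 CPM, so that replicate 2 overlapped DMSO and the others did not. Sec61b stood at 21.8, 39.1 and 20.8 CPM, with the same single overlap, and Ssr1 at 192, 226 and 198 CPM. These calls turned on single libraries. Without WT BtdCPU replicate 2, 17 of 39 genes were called and Sdf2l1 changed by -1.52 and Sec61b by -1.03. Without replicate 1 or 3 of that group 3 and 4 were called, and without WT DMSO replicate 1 or 2, 6 and 7. The counts over all tested genes moved as well, from 3571 with all libraries to 5062 without WT BtdCPU replicate 2. They were 1780 and 1966 without WT BtdCPU replicates 1 and 3, and 2531 and 2370 without WT DMSO replicates 1 and 2. Ero1l, Herpud1 and Dnajc3 (-0.44) were the 3 called in every omission; Dnajc3 was not called when the fit held the compared groups alone (edgeR adjusted p 0.0510). In Perk-null cells Ero1l was not called without Perk-null DMSO replicate 3 or Perk-null BtdCPU replicate 1, leaving 1 call. The response to BtdCPU differed between genotypes for 1 gene, Ero1l, at -1.40 (SE 0.271, edgeR adjusted p 0.011), with 0 called higher and 1 lower beside 0.0373% and 0.162% of all genes. That call was lost without WT BtdCPU replicate 1 (-1.27) or 3 (-1.23) or Perk-null BtdCPU replicate 2 (-1.35), and without WT BtdCPU replicate 2 there were 3 calls. Over all tested genes that last omission gave 845 calls, against 32 with all libraries.

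Halofuginone alone lowered much of the set while raising a few genes. In WT cells 22 of 39 genes were called lower and 6 higher, beside 33.4% and 34.7% of all tested genes. The lower calls were 13 of 20 folding, 6 of 8 translocation and 3 of 11 ERAD genes, and medians were -0.724, -0.788 and -0.153 (0.00412 for all genes). In Perk-null cells 14 were called lower and 4 higher, beside 21% and 21.2% of all genes. Of these 14, 13 were also called lower in WT cells. Such shared calls were counted only among the 39 genes, with no background over all genes. Scaled by library size alone, the median over all genes was -0.11 in the WT comparison and 0.105 in the difference between genotypes, and no called direction reversed. The summed Krt8 and Krt18 level given above moved with this comparison; its part was not tested.

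Among the genes that fell, Sdf2l1 stood at 3.22, 2.73 and 3.52 CPM in WT cells, a change of -2.42 (SE 0.307, edgeR adjusted p 3.44e-08), all under the lowest DMSO library. In Perk-null cells it stood at 10.6, 10.03 and 15.7 CPM, a change of -0.60 that did not pass but did in 3 alternatives, no filter on low counts (-0.60, edgeR adjusted p 3.3e-05), the compared groups alone (-0.59, edgeR adjusted p 0.0188) and the replicate block (-0.60, edgeR adjusted p 0.0413). Sec61b stood at 13.5, 13.3 and 10.1 CPM in WT cells, -1.82 (SE 0.199, edgeR adjusted p 1.76e-09), and at 15.6, 19.4 and 14.6 CPM in Perk-null cells, -0.93 (SE 0.194, edgeR adjusted p 0.000235), without overlap with DMSO in either. Sec61a1 stood at 187, 177 and 177 and 352, 395 and 311 CPM, changes of -0.89 in WT and -0.30 in Perk-null cells, the latter lost without Perk-null DMSO replicate 3 (-0.25) or Perk-null halofuginone replicate 3 (-0.22). Ssr1 stood at 128, 115 and 115 and 203, 205 and 189 CPM, changes of -1.13 and -0.52. Among isomerases Pdia4 changed by -1.53 and -0.67, Pdia6 by -1.23 and -0.57, and P4hb by -1.06 and -0.41 in WT and Perk-null cells. Calr stood at 616, 511 and 678 and 939, 1033 and 1026 CPM, changes of -0.91 and -0.77, and Hsp90b1 at 1744, 1407 and 1354 and 1469, 1433 and 1726 CPM, changes of -0.74 and -0.36. Of the ERAD genes Edem1 stood at 48.9, 48.6 and 41.9 CPM in WT cells, -0.71, and Edem2 and Os9 changed by -1.25 and -0.84 in WT and -0.54 and -0.49 in Perk-null cells.

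Against this trend Hspa5 stood at 4131, 3927 and 3036 CPM in WT cells, a rise of 1.41 (SE 0.143, edgeR adjusted p 3.68e-10), and at 2671, 2688 and 3019 CPM in Perk-null cells, a rise of 0.83 (SE 0.142, edgeR adjusted p 1.55e-05). Ero1l stood at 129.7, 129 and 75.5 CPM, a rise of 2.003 (SE 0.197, edgeR adjusted p 1.98e-10), and at 124, 120.1 and 140.2 CPM, a rise of 1.72 (SE 0.195, edgeR adjusted p 1.86e-08). Herpud1 stood at 296, 284 and 306 CPM, a rise of 2.44 (SE 0.16, edgeR adjusted p 2.5e-14), and at 162, 158 and 202 CPM, a rise of 1.64 (SE 0.156, edgeR adjusted p 6.69e-10). All libraries of these 3 genes lay above DMSO. Sec63, the partner that brings BiP to the channel, rose by 0.66 in WT cells, and Sec62 by 0.35, which was not called without WT halofuginone replicate 3 (0.24). Derl3 stood at 0.619, 0.557 and 1.14 CPM in WT cells, a rise of 2.04 (SE 0.559) at a level near 0, and at 0.108, 0.0824 and 0.466 CPM in Perk-null cells, where it did not pass. Dnajb9 stood at 13.8, 11.2 and 10.5 CPM in WT and 14.5, 11.9 and 13.99 CPM in Perk-null cells and passed in neither (0.19 and 0.30).

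**Figure D4:**
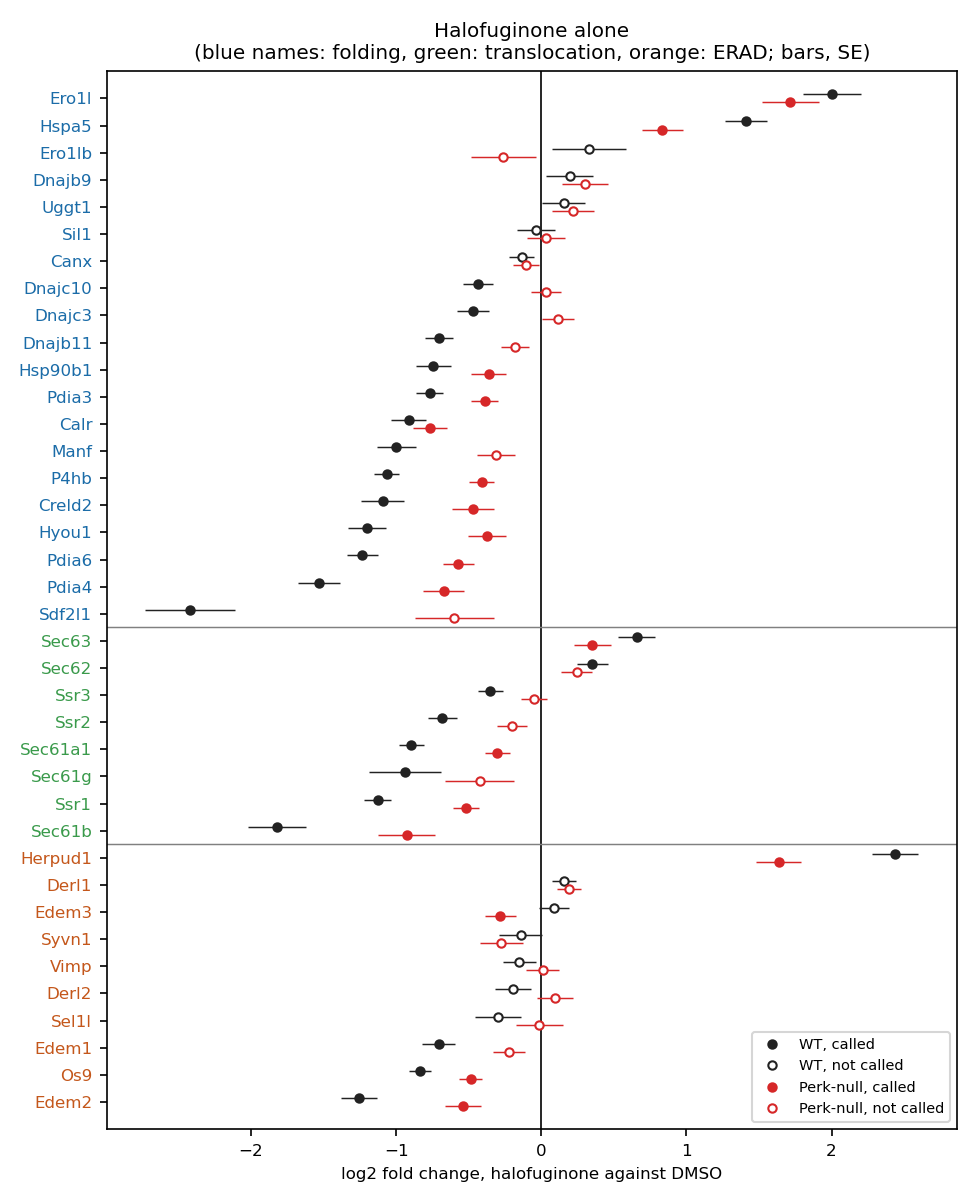
Log2 fold change with halofuginone against DMSO for 38 genes (Derl3 left out) in WT (black) and Perk-null cells (red), with SE bars; filled points passed the threshold. Ero1l, Hspa5 and Herpud1 lie to the right in both genotypes, and the WT points of Sdf2l1, Sec61b and Edem2 lie far left of the Perk-null points.

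The response to halofuginone differed between genotypes for 20 of 39 genes. In 18 the Perk-null value was higher and in 2 lower, beside 17.5% of all genes each way. The 18 were 11 folding, 4 translocation and 3 ERAD genes, and in each the WT response was the more negative. Sdf2l1 differed by 1.82 (SE 0.409, edgeR adjusted p 0.000845), Sec61b by 0.89 (SE 0.274, edgeR adjusted p 0.0117) and Edem2 by 0.72 (SE 0.175, edgeR adjusted p 0.00192). Herpud1, with the larger rise in WT cells, differed by -0.80 (SE 0.216, edgeR adjusted p 0.00437). The other, Hspa5, differed by -0.58 (SE 0.199, edgeR adjusted p 0.0233), a call lost in 7 of the 12 omissions of 1 library (-0.43 without WT halofuginone replicate 1) and when scaled by library size alone (-0.47).

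Added to thapsigargin in WT cells, the called changes with both compounds were all downward, in comparisons that share the 3 WT thapsigargin libraries. With BtdCPU and thapsigargin 0 of 39 genes were called higher and 11 lower than with thapsigargin alone, beside 1.29% and 1.02% of all tested genes. Same-numbered libraries deviated together here, a pairing seen in the data and not given by the labels. With the number as a block 24 were called lower, 12 of them folding, 7 ERAD and 5 translocation genes. In that blocked fit 2079 of 16065 tested genes were called, 1105 of them higher. Pdia4 changed most among the folding genes called, by -0.55, and the largest called ERAD change was that of Edem1, from 187, 190.1 and 195 CPM to 156, 144 and 121 CPM (-0.44). Sec61b went from 51.7, 53.8 and 42.8 to 33.2, 40.6 and 27.4 CPM, without overlap, and its change of -0.55 did not pass without the block but did with it (-0.57, edgeR adjusted p 0.00179). Hspa5 went from 22340, 19330 and 18470 to 17260, 16190 and 12370 CPM, without overlap, a change of -0.39 that passed with the block (-0.41, edgeR adjusted p 0.00278) and not without it. Both genes also passed unblocked with no filter on low counts. The unblocked count was 0 without WT thapsigargin replicate 1 or without replicate 3 of the combination. It was 7 and 2 without WT thapsigargin replicates 2 and 3 and 5 without replicate 2 of the combination, and 14 without replicate 1. Over all tested genes 372 were called with all libraries, 68 without WT thapsigargin replicate 1 and 41 without replicate 3 of the combination.

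With halofuginone and thapsigargin 28 of 39 genes were called lower and 0 higher than with thapsigargin alone in WT cells, beside 22.5% and 22.8% of all genes. With the replicate block 30 were called lower, in a fit where 8597 of 16065 tested genes were called, 4266 of them higher. The block added Hspa5 (-0.36, edgeR adjusted p 0.00119) and Derl2 (-0.21, edgeR adjusted p 0.0363). Unblocked, Hspa5 changed by -0.34 (edgeR adjusted p 0.0505) and passed in 4 other alternatives, DESeq2 among them. Medians were -0.564 for folding, -0.495 for translocation and -0.5 for ERAD genes. Pdia4 changed most, by -1.26 (SE 0.143, edgeR adjusted p 1.87e-08), then Sel1l by -0.96 and Hyou1 by -0.89. Sec61b went to 30.5, 29.2 and 21.4 CPM, a change of -0.87 (SE 0.191, edgeR adjusted p 0.000395), and Vimp to 162, 181 and 138 CPM, a change of -0.46. Dnajb9 went to 115, 122 and 68.6 CPM, a change of -0.60, or -0.38 without replicate 3 of the combination. That library lay low in many of these genes, and without it 24 were called. Over all tested genes 7276 were called with all libraries and 6010 without that library. The summed epithelial markers were at 0.402 to 4.41 CPM with thapsigargin and at 7.6 to 10.4 CPM with halofuginone added, and their part was not tested. Herpud1, at 1158, 1130 and 866 CPM, did not pass (-0.079, edgeR adjusted p 0.701), nor with the block.

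In Perk-null cells genes were called both ways with the same additions. With BtdCPU 4 of 39 genes were called higher and 12 lower than with thapsigargin alone, beside 17.3% and 18.3% of all tested genes. With halofuginone 10 were called higher and 9 lower, beside 25.2% and 27.5%, so that the share of the 39 genes called with halofuginone was near that of all genes. Both comparisons share the 3 Perk-null thapsigargin libraries. Of the 8 translocation genes, 0 were called higher and 5 lower with either compound, and medians were -0.391 with BtdCPU and -0.464 with halofuginone, beside -0.0397 and -0.0143 for all genes. Folding genes gave 3 higher and 4 lower with BtdCPU and 8 higher and 1 lower with halofuginone, and ERAD genes 1 and 3, then 2 and 3. The other genes of the machinery did not split in the same way: of 38 other folding genes 4 were called higher and 12 lower with BtdCPU and 4 higher and 23 lower with halofuginone (medians -0.175 and -0.411). Of 42 other translocation genes 2 were called higher and 11 lower, then 4 and 18, and of 35 other ERAD genes 9 and 8, then 10 and 9.

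Hspa5, Ero1l and Herpud1 rose with each compound. Hspa5 stood at 6364, 5910 and 6202 CPM with thapsigargin, at 9609, 10690 and 11980 CPM with BtdCPU added and at 14040, 15730 and 12760 CPM with halofuginone added. Its changes were 0.80 (SE 0.141, edgeR adjusted p 3.76e-05) and 1.20 (SE 0.143, edgeR adjusted p 1.88e-08). Ero1l stood at 55.99, 56.7 and 50.4 CPM, at 131, 122 and 161 CPM and at 132, 135 and 129.8 CPM in the same order, with changes of 1.34 (SE 0.192, edgeR adjusted p 1.79e-06) and 1.28 (SE 0.192, edgeR adjusted p 1.15e-06). Herpud1 stood at 215, 202 and 238 CPM, at 430.1, 403 and 553 CPM and at 504, 528 and 572 CPM, with changes of 1.08 (SE 0.153, edgeR adjusted p 1.49e-06) and 1.29 (SE 0.154, edgeR adjusted p 2.06e-08). In none of them did a combination library overlap thapsigargin alone. Beside them Ddit3, the gene of CHOP, changed by 3.05 with BtdCPU and 2.18 with halofuginone, and Atf4 by 0.93 and, not past the threshold, 0.21.

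With halofuginone some partners of BiP were called higher and others were not. Dnajb9 went from 33.3, 30.3 and 35.8 to 62.2, 61.95 and 57.7 CPM, a rise of 0.87 (SE 0.151, edgeR adjusted p 1.27e-05), and the J-domain genes Dnajb11 and Dnajc3 rose by 0.50 and 0.30, the latter lost without replicate 2 of the combination (0.28). The exchange factors Hyou1 and Sil1 and the J-domain gene Dnajc10 did not pass, at -0.0014, -0.13 and -0.14. The secreted factors Creld2 and Manf rose by 0.56 and 0.47. With BtdCPU Dnajb9 stood at 37.97, 31.9 and 42.1 CPM and did not pass (0.17). Sil1 was called higher with BtdCPU, from 31.6, 39.8 and 45.2 to 48.7, 49.2 and 59.8 CPM, a call lost in at least 1 omission. Sdf2l1, whose change with BtdCPU did not pass (0.37), stood at 126, 122 and 159.8 CPM with BtdCPU and 166, 169.8 and 149.9 CPM with halofuginone, above thapsigargin alone in every library. Its change of 0.62 (SE 0.258, edgeR adjusted p 0.0444) with halofuginone was lost without Perk-null thapsigargin replicate 1 (0.57) or 2 (0.6001) or replicate 1 (0.64) or 2 (0.61) of the combination.

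Genes of the channel and of TRAP were among those that fell. Sec61a1 went from 741, 729.8 and 776 CPM to 543, 589.8 and 618 CPM with BtdCPU (-0.36 (SE 0.088, edgeR adjusted p 0.00166)) and 492, 542 and 498 CPM with halofuginone (-0.55 (SE 0.0881, edgeR adjusted p 3.39e-06)), without overlap. Ssr1 went from 401, 409.5 and 432 CPM to 288, 312 and 316 CPM (-0.44) and 258, 304 and 271 CPM (-0.58), also without overlap. Sec61b went from 39.6, 49.5 and 39.4 CPM to 22.1, 27.7 and 26.3 CPM (-0.75) and 31.7, 30.3 and 23.9 CPM (-0.58); the latter was lost without Perk-null thapsigargin replicate 2 (-0.43) or replicate 3 of the combination (-0.44). P4hb changed by -0.45 and -0.61. Os9 went from 126, 126 and 135 CPM to 96.7, 103 and 111 CPM (-0.32, lost with no filter on low counts) and 66.7, 72.2 and 65.6 CPM (-0.92), the largest ERAD fall with halofuginone, and Edem2 changed by -0.89 with halofuginone. Vimp went from 109, 114 and 112 CPM to 74.7, 71.1 and 81.5 CPM with BtdCPU, a change of -0.56, and to 101, 94.5 and 88.2 CPM with halofuginone, which did not pass (-0.24).

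**Figure D5:**
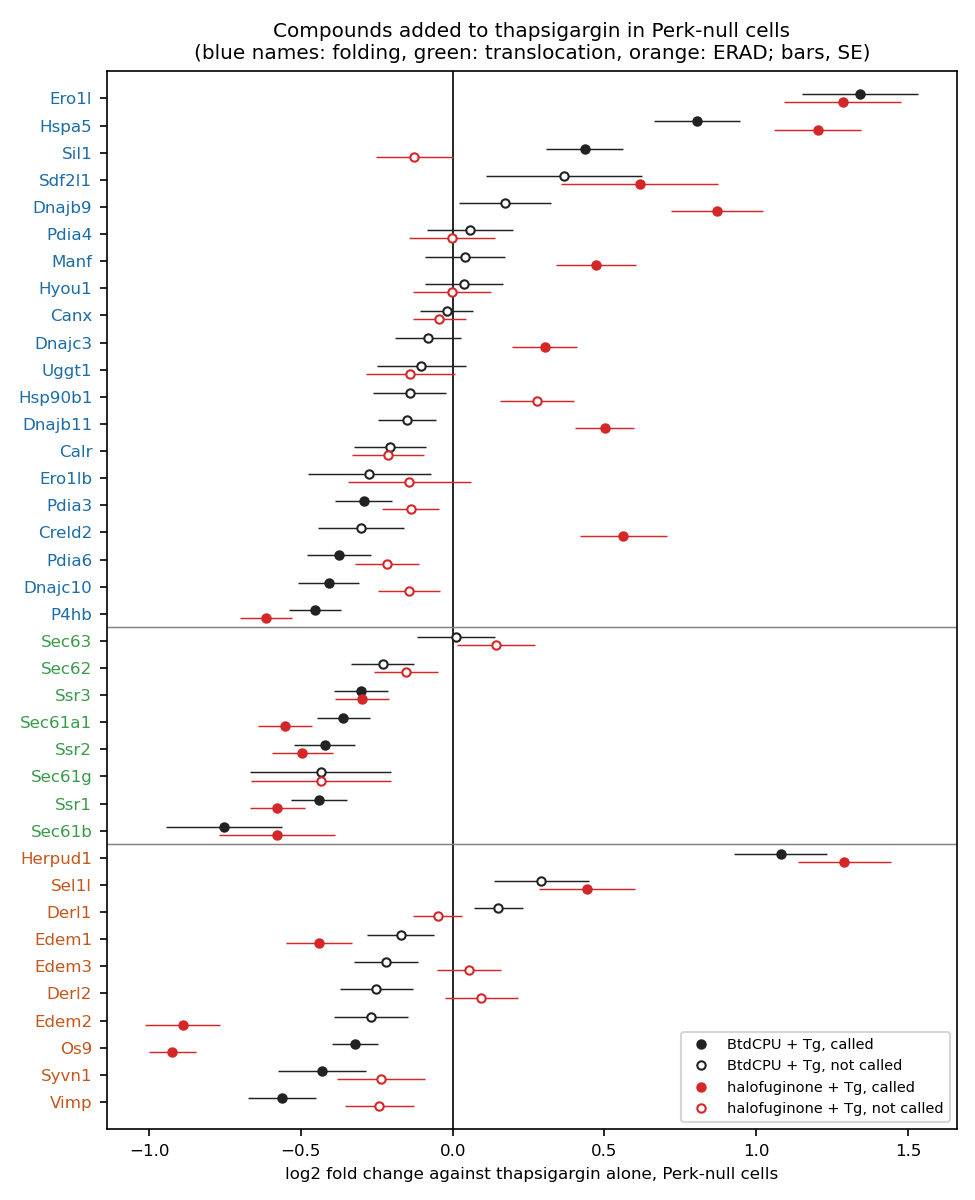
Log2 fold change in Perk-null cells of BtdCPU with thapsigargin (black) and halofuginone with thapsigargin (red) against thapsigargin alone for 38 genes (Derl3 left out), with SE bars; filled points passed the threshold. Ero1l, Hspa5 and Herpud1 lie to the right with both compounds, and 5 translocation genes are called to the left with each.

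The effect of each compound over thapsigargin differed between genotypes for 6 genes with BtdCPU, all higher in Perk-null cells, beside 10.7% of all genes called higher and 10.1% lower. With halofuginone 15 genes were called higher and 0 lower, beside 15.9% and 16.9%. The 6 with BtdCPU were Ero1l, Herpud1, Hspa5, Sel1l, Pdia4 and Derl1, by 0.46 to 1.57. With the replicate block 10 were called, beside 4989 of 16065 tested genes, and Pdia4 was lost in 6 omissions of 1 library. With halofuginone the calls were 12 of 20 folding, 3 of 11 ERAD and 0 of 8 translocation genes. Ero1l differed by 1.79 (SE 0.268, edgeR adjusted p 4.35e-06), Hspa5 by 1.54 (SE 0.2, edgeR adjusted p 4.8e-07), Dnajb9 by 1.47 (SE 0.212, edgeR adjusted p 2.6e-06) and Sel1l by 1.40 (SE 0.223, edgeR adjusted p 1.01e-05). The translocation genes had medians of -0.0731 with BtdCPU and 0.012 with halofuginone, beside -0.049 and -0.0365 for all genes.

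Perk-null cells given a compound with thapsigargin can also be set against WT cells given the same. With thapsigargin alone 22 of 39 genes were lower and 6 higher in Perk-null cells, beside 34.1% and 31.5% of all tested genes. With BtdCPU added 22 were lower and 5 higher, beside 32.2% and 28.1%, and with halofuginone added 12 were lower and 8 higher, beside 33.2% and 28.9%. The higher calls moved with single libraries. Without WT thapsigargin replicate 2 the first comparison gave 3 higher and 24 lower (with no filter on low counts 2 and 23). Without replicate 3 of WT halofuginone with thapsigargin the last gave 3 higher and 15 lower. Over all tested genes the omission in the first comparison gave 9996 calls, 4808 of them higher. That in the last gave 9061, 4151 of them higher. With no filter the first gave 10506 calls, 4811 of them higher. The folding median went from -0.996 with thapsigargin alone to -0.515 with BtdCPU and -0.118 with halofuginone added. Against thapsigargin alone, WT folding genes had median changes of -0.396 with BtdCPU and -0.564 with halofuginone. The matching Perk-null medians were -0.0922 and -0.00208. The narrower gap thus went with lower WT levels at the median, without a rise of the Perk-null median. Single genes differed: with halofuginone 8 Perk-null folding genes were called higher and 1 lower. Hspa5 stood -1.70 apart with thapsigargin, -0.51 with BtdCPU added and, overlapping WT libraries, -0.16 with halofuginone added, which did not pass. Ero1l stood -1.93 apart with thapsigargin and passed with neither combination (-0.36 and -0.13). Herpud1 stayed lower in all 3, at -2.35, -1.03 and -0.98, and so did Dnajb9, at -2.21, -1.72 and -0.75. As a TMM-scaled share of counts the whole set reached 3.18% ± 0.267 with BtdCPU and thapsigargin in Perk-null and 4.34% ± 0.509 in WT cells (SD, n = 3). With halofuginone and thapsigargin it reached 3.76% ± 0.241 in Perk-null and 4.04% ± 0.747 in WT cells. Of unscaled library totals it held 3.23% and 4.44% with BtdCPU and thapsigargin in Perk-null and WT cells. With halofuginone and thapsigargin the unscaled values were 3.9% and 3.92%.

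In DMSO 9 of the 39 genes were called higher and 11 lower in Perk-null cells, shares near the 24.6% and 24.9% of all tested genes. Ero1lb was higher by 1.33 (SE 0.241), Creld2 by 0.75 (SE 0.145), Ssr2 by 0.69 (SE 0.101) and Calr by 0.59 (SE 0.119). Os9 differed by -0.97 (SE 0.0766), Dnajc10 by -0.85 (SE 0.102), Edem3 by -0.63 (SE 0.106) and Vimp by -0.55 (SE 0.115). Os9 stood at 161, 149 and 163 CPM in WT and 80.5, 77.5 and 83.6 CPM in Perk-null libraries, and Vimp at 51.8, 57.7 and 46.6 and 35.95, 35.5 and 34.9 CPM, without overlap. Hspa5 overlapped, and its difference of 0.17 did not pass. Of the 11 genes lower in DMSO, 10 were also lower with thapsigargin (10 of the 22 called there), and of the 9 higher, 4 were also higher (4 of 6). Os9, Vimp, Dnajc10, Edem3, Manf, Sec63, Derl1 and Uggt1 were called lower, and Ssr2, Sec62, Sec61a1 and Edem1 higher, in Perk-null cells in all 4 comparisons of genotypes, while some of these calls were lost in omissions of 1 library. With thapsigargin 34.1% of all tested genes were called lower and 31.5% higher. Calls shared by these comparisons were counted only among the 39 genes, with no background over all genes. In DMSO 13 of the 20 calls were kept in every omission, and scaled by library size alone 10 were higher and 8 lower.

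Derl3 stayed near the floor everywhere: its libraries ran from 0 to 1.14 CPM, and a count of 0 allows up to 3 counts. In Perk-null cells it stood at 0.191, 0.220 and 0.161 CPM with DMSO and 0.190, 0.218 and 0.134 CPM with thapsigargin, overlapping. With BtdCPU and thapsigargin it stood at 0.299, 0.550 and 0.369 CPM in WT and 0.161, 0.109 and 0 CPM in Perk-null cells, without overlap. Fold changes of this gene rest on few counts.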

How the data were processed

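Bulk RNA-seq libraries of 36 MEF samples, 12 groups of 3, were analysed from 1 table of expected counts per gene that the authors deposited; the labels describe a strand-specific kit with rRNA depletion and mRNA selection. GRCm39 and DESeq are named per the submitters' processing notes. The aligner, the counter and the use of strand are not given in the sources used here. Of the 36930 entries, 27 whose names had become dates (0.206% to 0.278% of counts) were dropped, and 39 repeated symbols (86 entries) were summed, leaving 36856. Expected counts were rounded, and the authors' placeholder of 0.025 became 0.

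edgeR 4.0.16 (R 4.3.3) was run with filterByExpr, TMM scaling, 12 group means over all libraries and robust quasi-likelihood tests, with Benjamini-Hochberg adjustment over 16065 genes and a threshold of 0.05. Each standard error is the log2 fold change over the root of F. Alternatives were other scalings, no filter, the compared groups alone, a replicate block, each library left out, and DESeq2 1.42.0. Same-numbered samples deviated together (every correlation over 0.1) for WT thapsigargin with BtdCPU (0.159, 0.312 and 0.337) and with halofuginone (0.162, 0.201 and 0.308), so blocked values stand beside those comparisons; the pairing comes from the data, not the labels. The procedure was tested on simulated data. Promoters are from RefSeq (GRCm38.p6) and exon lengths from GENCODE M21. Libraries held 32454257 to 37178107 counts. Genes are named under the rule that all 39 members may be, with library values for 13 and for the largest change of each class. The looser ATF4-type motif was added after the strict one. The members and lists were chosen with earlier results of these data known.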

Additional observations from a re-analysis of the deposited data

Results flagged for a closer look

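In each of 5 treatments the response of at least 1 of the 39 genes differed between Perk-null and WT cells, by edgeR's test of the difference itself. With thapsigargin 20 of the 39 genes differed, led by Ero1l at -2.42 and Herpud1 at -2.38 (log2, Perk-null minus WT). Of these 2 were higher and 18 lower, beside 19.5% and 18.6% of all tested genes. With BtdCPU 1 gene differed, Ero1l at -1.40, with 0 called higher and 1 lower beside 0.0373% and 0.162% of all genes. That call was lost in some omissions of 1 library and when the fit held the compared groups alone. With halofuginone 20 genes differed, 18 higher and 2 lower, beside 17.5% of all genes each way. The largest called in each class were Sdf2l1 at 1.82, Sec61b at 0.89 and Herpud1 at -0.80. For BtdCPU added to thapsigargin 6 genes differed, all higher, beside 10.7% of all genes called higher and 10.1% lower. They were led by Ero1l at 1.57 and Herpud1 at 1.31. For halofuginone added to thapsigargin 15 genes differed, all higher, beside 15.9% of all genes called higher and 16.9% lower. Ero1l at 1.79 was the largest among folding and Sel1l at 1.40 the largest among ERAD genes. For both additions the share called either way was near that of all genes.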

How the results depend on the processing

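No call of the 39 genes reversed under any alternative. Of 360 calls over the 19 comparisons, 312 were kept under every alternative with all libraries and 291 in every omission of 1 library. Of 114 counts of called genes under alternatives with all libraries, 102 were within 1.5 times the reported count; the others concern BtdCPU. For BtdCPU in WT cells (11 reported) the replicate block gave 18 and the compared groups alone 2, and omissions gave 3 to 17. Scaled by library size alone 3 were higher and 9 lower. The count over all tested genes was 3571, with 5534 under the block and 835 with the compared groups alone. In Perk-null cells (2 reported) the compared groups alone gave 4, and omissions 1 to 2. For the difference between genotypes (1 reported, Ero1l) no filter gave 3, the block 2 and the compared groups alone 0, and omissions 0 to 3. For BtdCPU over thapsigargin in WT cells (11 reported) library size alone gave 5, no filter 17, the block 24, the compared groups alone 0 and DESeq2 20, and omissions gave 0 to 14. Over all tested genes that count was 372, with 2079 under the block and 23 with the compared groups alone. It was 535 with library size alone, 813 of 28037 with no filter and 899 of 11186 with DESeq2. The difference between genotypes in BtdCPU over thapsigargin (6 reported) gave 10 with the block and 5 to 9 in omissions. With fewer samples in the fit, the spread is estimated from fewer libraries; otherwise the cause was not tested. Blocked counts in the other comparisons were within 1.5 times the reported ones. Of 60 TMM-scaled shares of counts, 46 moved by less than 1 SD when taken of unscaled library totals. Depth limits Derl3, near 0 counts.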
